A study of Mus musculus with 24 samples.

Results

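In Lap2alpha -/- fibroblasts (KO), 2 antibodies against the same protein, lamin A/C, were compared for the chromatin that each recovered: N18, whose epitope lies in the N-terminal part, and 3A6 (clone 3A6-4C11), which binds the immunoglobulin fold near the C terminus. The comparison used 4 of the 24 samples of the series, LaminAC N18 and LaminAC 3A6 from KO cells after 12 and after 30 cycles of sonication, with 1 library in each group. Each library came as a list of broad domains from the caller EDD, which scans bins of 11 kb, and a list of short islands from the caller SICER. These 4 libraries held 1222 of the 3486 EDD domains and 24893 of the 87065 SICER islands in the series. Every base pair of a domain list was placed in 1 of 3 classes, N18-only, both or 3A6-only, and an unbroken run of 1 class is called a stretch.

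The cells were immortalized mouse dermal fibroblasts, a cell line grown in culture, in which the gene Tmpo no longer makes LAP2alpha. All 4 libraries came from this genotype, from nuclei of formaldehyde-fixed cells sheared on the same instrument setting. By the run names, both antibodies shared a flow cell and lane at each sonication. The 12-cycle and 30-cycle libraries did not, so an effect of shearing and one of the sequencing run cannot be told apart. Lamin B1 and LAP2alpha had been immunoprecipitated in Lap2alpha +/+ cells (WT), so their domains are a map of WT chromatin laid under KO classes. The labels name neither clones nor animals for these lines, and region lists hold no expression with which the fibroblast label could be checked. With 1 library per group no spread between replicates exists, no p-value is given for any difference between antibodies, and pooling the sonications into 2 libraries a side would allow no two-sided exact permutation p below 0.333.

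Lamins are intermediate filament proteins that line the inner face of the nuclear envelope. Lamin B1 stays at that rim and marks lamina-associated chromatin, which is poor in genes and in G+C, whereas part of lamin A/C lies in the nuclear interior, where LAP2alpha binds it. An antibody recovers only chromatin on which its own epitope can be reached, and the N terminus and the immunoglobulin fold lie at different places on the filament protein.

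The classes differed in base composition, and 1 promoter of each class is shown as an example of such sequence. For the longest stretch of each class that recurred at both sonications, 1 promoter of the longest gene with an entry in the RefSeq table (GRCm38.p6) is printed. It runs from 250 bases before to 50 after the start, with every CG dinucleotide in capitals. That table holds 2 entries for Tnrc6b, 1 for Defb39 and 4 for Fgf13, and the first that matched within the stretch was taken. Each sequence matched mm9 exactly at 1 place on its chromosome, and these places are chr15:80541493-80541792 on the plus strand for Tnrc6b, chr8:19064872-19065171 on the minus strand for Defb39 and chrX:56838700-56838999 on the minus strand for Fgf13. Tnrc6b, from the N18-only stretch, encodes a protein of microRNA silencing. Defb39, from the stretch seen by both, encodes an antimicrobial beta-defensin. Fgf13, from the 3A6-only stretch, encodes an intracellular fibroblast growth factor homologue of neurons.
Tnrc6b: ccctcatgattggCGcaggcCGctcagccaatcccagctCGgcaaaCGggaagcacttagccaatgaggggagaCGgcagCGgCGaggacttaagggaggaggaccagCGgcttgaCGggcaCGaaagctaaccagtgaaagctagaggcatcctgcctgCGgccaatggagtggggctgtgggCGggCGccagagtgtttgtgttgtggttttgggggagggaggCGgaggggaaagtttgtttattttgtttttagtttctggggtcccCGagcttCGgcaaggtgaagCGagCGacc
Defb39: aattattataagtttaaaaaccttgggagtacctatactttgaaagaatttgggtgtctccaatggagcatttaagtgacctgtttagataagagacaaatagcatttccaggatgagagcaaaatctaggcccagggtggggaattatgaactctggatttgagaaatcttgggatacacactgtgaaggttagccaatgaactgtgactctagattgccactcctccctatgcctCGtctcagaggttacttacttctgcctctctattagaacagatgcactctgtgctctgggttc
Fgf13: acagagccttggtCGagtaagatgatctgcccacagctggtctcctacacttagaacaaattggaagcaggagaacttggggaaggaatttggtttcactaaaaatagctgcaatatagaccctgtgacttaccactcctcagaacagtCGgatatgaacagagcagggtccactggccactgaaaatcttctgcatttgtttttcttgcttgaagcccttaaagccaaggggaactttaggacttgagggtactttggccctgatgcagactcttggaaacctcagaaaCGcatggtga
The 300 bases at Tnrc6b held 18 CG dinucleotides, those at Fgf13 held 3 and those at Defb39 held 1. Their G+C contents were 59.7%, 46.3% and 41.7%. The same window cut from mm9 at the annotated start of every protein-coding gene held a median of 15 CG dinucleotides for the 1941 genes that were N18-only at both sonications, 8 for the 751 genes seen by both and 2 for the 213 genes that were 3A6-only. At least 10 CG dinucleotides were present in 63.6%, 47.0% and 17.4% of these windows, against 54.1% of the windows of all 22203 genes with a complete sequence. The printed Defb39 promoter, with fewer CG dinucleotides than that of Fgf13, lies outside this order of medians, so single promoters do not stand for their class. The motif CG reads the same on either strand, and its count describes the sequence alone.

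The overlap of the antibodies was measured first. At 12 cycles N18 domains covered 422 Mb and 3A6 domains 384 Mb, of which 240.5 Mb lay in both, 181 Mb in N18 alone and 143 Mb in 3A6 alone. The shared part was 42.6% of the bp held by either antibody, and it took 57.0% of the N18 bp and 62.6% of the 3A6 bp. At 30 cycles N18 covered 472 Mb and 3A6 499.6 Mb, with 206 Mb in both, 266 Mb in N18 alone and 294 Mb in 3A6 alone. The shared part was then 26.9% of the bp held by either antibody, and 43.6% of the N18 bp and 41.2% of the 3A6 bp. Each antibody left out a large part of what the other held at both sonications, and the exclusive parts were longer and the shared part shorter at 30 cycles. When whole domains rather than base pairs were counted as shared, a touch of 1 bp being enough, the share was 82.9% at 12 cycles and 64.8% at 30 cycles, since a long domain counted whole.

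The exclusive base pairs lay differently with respect to shared ones. At 12 cycles 63 of 239 N18 domains and 108 of 328 3A6 domains had no bp in common with the other antibody, and at 30 cycles these were 185 of 339 and 136 of 316. Domains of N18 alone had a median length of 539 kb at 12 cycles and 550.0 kb at 30 cycles, and those of 3A6 alone 715 kb and 968 kb. Of the N18-only bp at 12 cycles, 44.4% lay in stretches with shared chromatin on either side, against 6.23% of the 3A6-only bp. At 30 cycles this share was 24.8% for N18-only and 4.48% for 3A6-only bp, and 49.3% of the N18-only bp lay in domains that 3A6 did not touch, against 26.7% at 12 cycles. Most 3A6-only bp, 62.6% at 12 cycles and 71.6% at 30 cycles, lay in domains that N18 did not touch. Where domains met, a minority of their ends coincided to within 11 kb. At 12 cycles 19.3% of N18 borders and 15.5% of 3A6 borders did, and at 30 cycles 18.5% and 15.8%. The nearest same-side border of the other antibody was at a median distance of 93.5 kb from N18 borders and 154 kb from 3A6 borders at 12 cycles, and at 143 kb and 269.5 kb at 30 cycles.

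**Figure D1:**
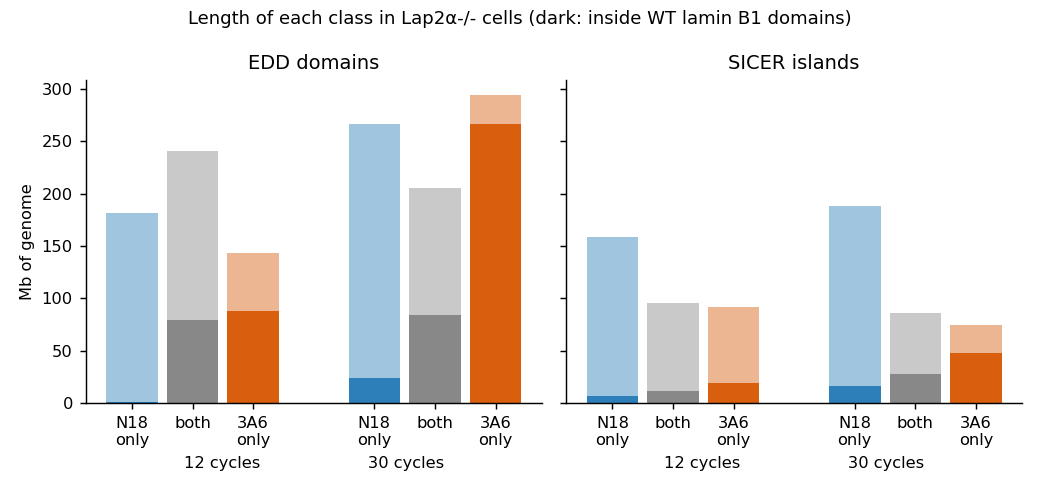
Bars give the length in Mb of N18-only (blue), shared (grey) and 3A6-only (orange) chromatin in KO cells for EDD domains (left) and SICER islands (right) at 12 and 30 cycles, with the part inside WT lamin B1 domains of the same sonication in the dark shade. Nearly all of the blue EDD bars lies outside lamin B1 domains, while lamin B1 domains take 88.0 of 143 Mb of the 3A6-only bar at 12 cycles and 266 of 294 Mb at 30 cycles.

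The second question was whether the exclusive parts lay in the same kind of chromatin. At 12 cycles WT lamin B1 domains of the same sonication covered 0.474% of the N18-only bp, 33.1% of the shared bp and 61.4% of the 3A6-only bp, where they covered 16.9% of the genome. At 30 cycles the shares were 9.03%, 41.1% and 90.5%, against 36.2% of the genome. The 3A6-only share thus exceeded the N18-only share by 60.9 percentage points at 12 cycles and by 81.5 at 30 cycles. With the lamin B1 domains of the other sonication the differences were 83.0 and 46.8 points, so the size depended on which lamin B1 library was laid under the classes while the direction did not. LAP2alpha domains of WT cells covered less of the 3A6-only than of the N18-only bp at both sonications. They covered 68.9% of the N18-only bp, 63.8% of the shared bp and 12.7% of the 3A6-only bp at 12 cycles, and 49.7%, 65.4% and 23.1% at 30 cycles, where the shared bp had the highest share.

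The order held chromosome by chromosome. Of the 20 chromosomes, 18 held both exclusive classes at 12 cycles and 17 at 30 cycles, and on each of these the 3A6-only bp had the larger lamin B1 share. Chromosome 8 at 12 cycles had 24.7 Mb of N18-only chromatin with 0.803% inside lamin B1 domains and 8.22 Mb of 3A6-only chromatin with 94.8% inside. Chromosome 15 had the smallest gap, since its 1.54 Mb of 3A6-only chromatin at 12 cycles lay only 5.71% inside lamin B1 domains, against 0.0815% of its 13.5 Mb of N18-only chromatin. On the X chromosome 3A6 alone held 21.7 Mb at 12 cycles and 36.3 Mb at 30 cycles, and N18 alone 3.87 Mb and 2.80 Mb. Chromosome 10 had no lamin A/C domain of either antibody at 12 cycles, and chromosome 16 had none of 3A6 at 30 cycles.

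**Figure D2:**
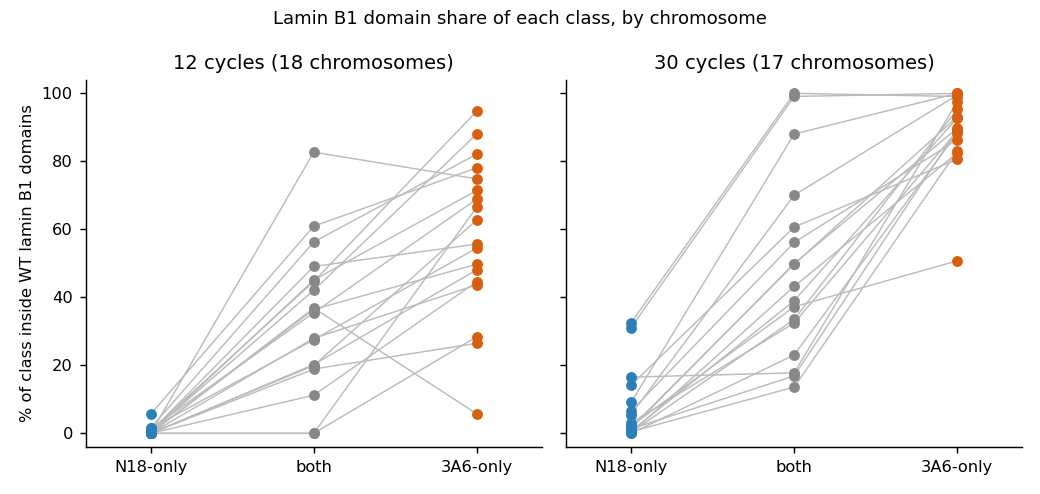
Points show, for each chromosome that holds both exclusive classes, the percentage of its N18-only, shared and 3A6-only EDD bp inside WT lamin B1 domains of the same sonication, with a line joining the classes of 1 chromosome. At 12 cycles all 18 N18-only points lie near 0 and below the 3A6-only point of their chromosome, and at 30 cycles all 17 lines end higher than they start.

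Gene content separated the classes as well. The mouse annotation for mm9 gave 22208 protein-coding genes, or 8.42 per Mb, and a gene was counted inside a class when the class covered at least 50% of its length. At 12 cycles 3419 genes were N18-only (15.4% of all genes), 1712 lay in both (7.71%) and 662 were 3A6-only (2.98%). These counts gave 18.9 genes per Mb of N18-only chromatin, 7.12 per Mb of shared chromatin and 4.62 per Mb of 3A6-only chromatin. At 30 cycles 4720 genes were N18-only (21.3%), 1609 lay in both (7.25%) and 1186 were 3A6-only (5.34%), with 17.7, 7.82 and 4.04 genes per Mb. N18-only chromatin was the denser class on each of the 18 and 17 chromosomes that held both exclusive classes. Genes of 3A6-only chromatin were also shorter, with a median of 6.88 kb against 14.2 kb in N18-only chromatin at 12 cycles and 6.90 kb against 14.0 kb at 30 cycles.

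Base composition followed the same order. G+C content was 47.0% in N18-only, 44.4% in shared and 39.7% in 3A6-only chromatin at 12 cycles, and 47.1%, 45.2% and 38.7% at 30 cycles, with 41.8% in the genome. Among stretches of at least 500 kb, each of the 109 N18-only stretches at 12 cycles and 167 of 170 at 30 cycles exceeded the G+C content of the genome, against 12 of 112 and 14 of 152 3A6-only stretches. The ranges still overlapped, since at 12 cycles these stretches spanned 41.8% to 52.1% G+C in N18-only, 38.7% to 51.6% in shared and 36.8% to 45.9% in 3A6-only chromatin. No N18-only stretch of this length lacked a protein-coding gene at 12 cycles and 1 did at 30 cycles, against 17 and 34 3A6-only stretches.

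**Figure D3:**
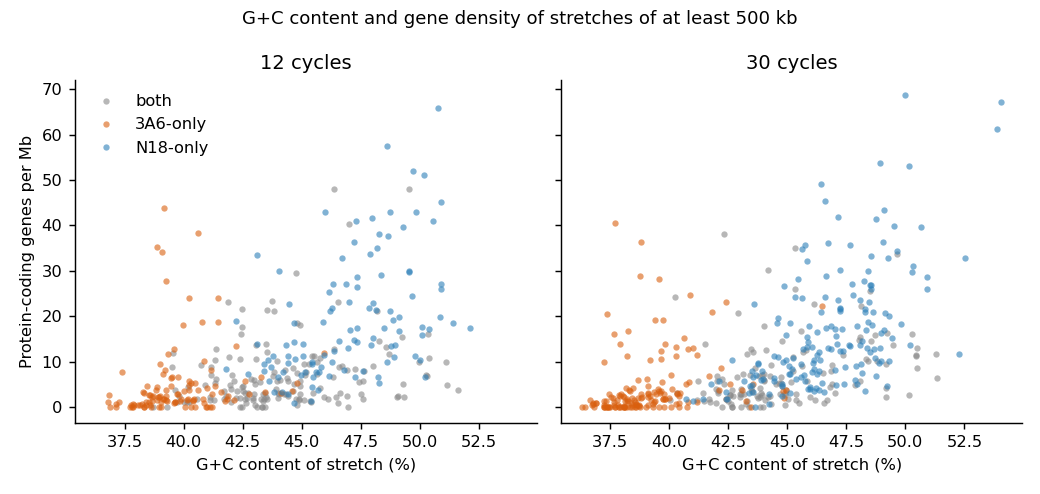
Each point is a stretch of at least 500 kb, placed by its G+C content in % (horizontal) and its protein-coding genes per Mb (vertical), at 12 cycles (left) and 30 cycles (right), coloured by class. The 3A6-only stretches center on a G+C content of 39.5% at 12 cycles and 38.8% at 30 cycles with medians of 2.41 and 1.92 genes per Mb, and the N18-only stretches on 47.1% and 46.6% with medians of 15.2 and 12.9 genes per Mb.

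The difference in gene density lay mostly outside lamin B1 domains. Outside them N18-only chromatin held 18.9 genes per Mb and 3A6-only chromatin 6.75 per Mb at 12 cycles, and 19.1 and 10.3 per Mb at 30 cycles. Inside them, at 30 cycles, the 24.0 Mb of N18-only chromatin held 3.53 genes per Mb and the 266 Mb of 3A6-only chromatin 3.36 per Mb. At 12 cycles the 0.858 Mb of N18-only chromatin inside lamin B1 domains held 10 genes, too few to compare.

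SICER islands, called from the same reads with windows of 1 kb, gave the same order with smaller gaps. Islands of N18 held 5520180 reads and those of 3A6 3989494 at 12 cycles, and 13601739 and 7927688 at 30 cycles, with 21.7 and 21.3 reads per kb of island at 12 cycles. At 12 cycles islands covered 159 Mb in N18 alone, 96.0 Mb in both and 91.7 Mb in 3A6 alone, so that 27.7% of the island bp was shared. At 30 cycles the lengths were 188, 86.5 and 75.1 Mb, with 24.8% shared. Lamin B1 domains covered 4.22% of N18-only and 21.3% of 3A6-only island bp at 12 cycles, and 8.83% and 64.3% at 30 cycles, which are differences of 17.1 and 55.5 points. Genes lay at 14.6 per Mb of N18-only and 4.46 per Mb of 3A6-only islands at 12 cycles, and at 13.4 and 4.38 per Mb at 30 cycles. The 3A6-only islands had the larger lamin B1 share on 18 of 19 chromosomes at 12 cycles and 17 of 19 at 30 cycles. Islands were unevenly spread, so these counts include chromosomes with few islands. At 12 cycles N18 and 3A6 islands covered 37.1% and 28.2% of chromosome 8, but 0.0702% and 0.0439% of chromosome 7. EDD domains covered 32.0% and 28.2% of chromosome 7. On 6 chromosomes at 12 cycles and 7 at 30 cycles, islands of at least 1 antibody covered under 1% of the bp. Shared islands were concentrated on chromosomes 3, 8, 15 and 18, which held 79.9% of the shared island bp at 12 cycles and 84.6% at 30 cycles. Compared with the product of the 2 coverages within each chromosome, shared island bp was 1.92 times as long at 12 cycles and 1.80 times at 30 cycles.

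Islands also showed that a domain called with 1 antibody was not without reads of the other. N18 islands filled 34.8% of N18-only domains at 12 cycles and 3A6 islands 16.6% of the same base pairs, against 27.1% and 7.67% at 30 cycles. In 3A6-only domains 3A6 islands filled 11.5% and N18 islands 5.37% at 12 cycles, and 12.5% and 5.02% at 30 cycles. In chromatin held by neither antibody as domains, islands of N18 covered 6.23% and of 3A6 4.21% at 12 cycles, and 7.15% and 3.49% at 30 cycles. The 3A6 islands thus covered more of N18-only domains than of chromatin without a domain, while N18 islands covered less of 3A6-only domains than of that chromatin. Island coverage differed widely between chromosomes, and the classes were unevenly spread over them. These shares were not split by chromosome, so a part played by that spread was not tested.

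The longest N18-only stretch at 12 cycles, chr15:74536001-82247000 (7.71 Mb), held 225 genes at a G+C content of 48.4% and was also N18-only at 30 cycles, within a stretch of 9.02 Mb (chr15:74448001-83468000) with 250 genes. It contains Sun2, which encodes an inner nuclear membrane protein that ties the lamina to the cytoskeleton, Kcnj4, an inwardly rectifying potassium channel gene, and the zinc finger gene Zfp251. N18 islands covered 80.4% of it at 12 cycles and 72.4% at 30 cycles, 3A6 islands 25.4% and 9.14%, and no bp lay in a lamin B1 domain. The next longest stretch that was N18-only at both sonications, chr5:121605001-126027000 (4.42 Mb, 93 genes), contains Zfp664, the proteasome gene Psmd9 and the ribosomal protein gene Rpl6. It was followed by chr8:124344001-128227000 (3.88 Mb, 72 genes), which contains Cdh15, the muscle cadherin gene, with Zfp276 and Rpl13. These 3 stretches lay outside lamin B1 domains of either sonication. In WT at 12 cycles N18 domains covered 74.9%, 100% and 100% of them, and 3A6 domains 11.3%, 100% and 100%. The last 2 were thus shared in full in WT at 12 cycles. WT N18 domains of 30 cycles covered 5.85%, 1.74% and 0% of the 3 stretches.

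Other long N18-only stretches were found at 1 sonication. At 12 cycles chr1:88154001-94039000 (5.89 Mb) held 73 genes, among them the Ugt1a cluster for glucuronidation enzymes (Ugt1a10, Ugt1a9 and Ugt1a8). The 30-cycle N18 domains covered 13.5% of it. N18 islands covered 2.06% of this stretch at 12 cycles and 3A6 islands 1.75%. Chromosome 1 as a whole was nearly free of islands, with 0.211% of it under N18 and 0.192% under 3A6 islands at 12 cycles. WT domains of 3A6 covered the stretch in full at 12 cycles. At 30 cycles chr4:131340001-139183000 (7.84 Mb, 165 genes) was N18-only and contains Rpl11, the cell cycle gene E2f2 and Wnt4, and N18 at 12 cycles covered 5.47% of it. On chr16:4895001-10681000 (5.79 Mb), which contains the glutamate receptor gene Grin2a, N18 at 12 cycles covered all and 3A6 95.4% of the bp, and 3A6 had no domain there at 30 cycles. That stretch lay 66.0% inside 30-cycle lamin B1 domains, unlike the others.

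Stretches seen by both antibodies included some very long genes. The longest at 12 cycles, chr12:103268001-119482000 (16.2 Mb, 163 genes), contains Cyp46a1, which hydroxylates cholesterol in brain, with Zfp839 and Zfp386. Lamin B1 domains covered 31.1% of it and LAP2alpha domains 78.4%. The next longest, chr16:5159001-13255000 (8.10 Mb, 48 genes), contains Grin2a and the ribosomal protein gene Rpl39l, and N18 at 30 cycles covered 82.3% of it and 3A6 at 30 cycles none. The third longest, chr8:114576001-121957000 (7.38 Mb, 27 genes), contains the cadherin gene Cdh13 and the contactin-associated gene Cntnap4. At 30 cycles the longest was chr8:8701001-19624000 (10.9 Mb, 81 genes), which contains Csmd1, a very long neuronal gene, and the collagen IV genes Col4a2 and Col4a1. It was followed by chr5:126027001-134519000 (8.49 Mb, 40 genes), with Tmem132d, Tmem132c and Tmem132b, and by chr8:89628001-96624000 (7.00 Mb, 47 genes), with Zfp423 and the retinoblastoma family gene Rbl2. The stretch with the most genes of this class at 30 cycles was chr5:112321001-118591000 (6.27 Mb, 102 genes), with the ribosomal protein gene Rplp0.

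The 3 longest stretches that stayed shared at both sonications lay mostly inside lamin B1 domains. Of all bp shared at both sonications, 38.5% lay inside 12-cycle and 50.4% inside 30-cycle lamin B1 domains. On chr8:15037001-19624000 (4.59 Mb, 24 genes), with Csmd1 and the defensin genes Defb39 and Defb37, lamin B1 domains covered 84.7% at 12 cycles and 84.4% at 30 cycles. On chr2:168498001-173030000 (4.53 Mb, 30 genes), with Zfp64, Zfp217 and the vitamin D hydroxylase gene Cyp24a1, they covered 55.3% and 53.4%. On chr5:126027001-129888000 (3.86 Mb, 12 genes) they covered 63.5% and 87.5%. On this last stretch LAP2alpha domains of WT covered all bp at 12 cycles, as did all 4 N18 and both KO 3A6 domain sets, so lamin B1 and LAP2alpha domains overlapped there.

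The longest 3A6-only stretches were poor in genes. At 12 cycles chr1:100166001-104654000 (4.49 Mb) held 2 genes, including Cntnap5b, a long neuronal adhesion gene, and lay wholly inside lamin B1 domains of both sonications. The 3A6 domains of 30 cycles covered 15.7% of it. On the X chromosome chrX:55308001-59565000 (4.26 Mb, 10 genes), with Fgf13, was 3A6-only at both sonications and lay 90.7% inside lamin B1 domains at 12 cycles and wholly inside at 30 cycles. It held no domain of LAP2alpha or of any N18 library, and at 30 cycles it was part of a 3A6-only stretch of 9.45 Mb (chrX:54802001-64251000, 18 genes). On chr8:77616001-79761000 (2.15 Mb, 6 genes), with the mineralocorticoid receptor gene Nr3c2, 3A6 islands covered 43.9% at 12 cycles and 75.01% at 30 cycles, and N18 islands 20.2% and 42.5%. A stretch of chromosome 18 at 26213001 to 29700000 (3.49 Mb) was 3A6-only at both sonications and held no protein-coding gene. At 30 cycles alone, chr14:108361001-116567000 (8.21 Mb, 7 genes), with Gpc5 and Slitrk5, and chr10:45441001-52998000 (7.56 Mb, 19 genes), with the kainate receptor gene Grik2, were 3A6-only and lay 93.0% and wholly inside lamin B1 domains of that sonication, against 0 and 10.8% at 12 cycles.

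Some 3A6-only stretches were dense in genes, and those with the most genes at each sonication held receptor gene clusters. The 3A6-only stretch with the most genes at 12 cycles, chr7:114950001-115940000, held 35 genes in 0.990 Mb, and all were olfactory receptor genes such as Olfr479 and Olfr484. At 30 cycles it was chr7:12133001-15741000 (3.61 Mb, 55 genes), with vomeronasal receptor genes such as Vmn1r90 and Vmn2r56. On chr16:58839001-62502000 (3.66 Mb, 28 genes) 3A6 alone held Gabrr3 and a cluster of olfactory receptor genes at 12 cycles, and neither antibody had a domain there at 30 cycles.

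The third question was whether the classes recurred under the other sonication, in libraries sequenced in another run. Of the N18-only bp at 12 cycles, 44.9% was N18-only again at 30 cycles, where that class held 10.1% of the genome, and 2.32% became 3A6-only. Of the 3A6-only bp at 12 cycles, 43.7% was 3A6-only again, where that class held 11.1% of the genome, and 5.28% became N18-only. Shared bp recurred as shared at 54.5%, where that class held 7.80% of the genome. Most of the remainder was lost from domains altogether, 36.5% of the N18-only bp and 41.0% of the 3A6-only bp, rather than passing to the other antibody. In islands the recurrence was 31.9% for N18-only, 39.7% for shared and 12.3% for 3A6-only bp. Those island classes held 7.12%, 3.28% and 2.85% of the genome at 30 cycles. The recurrence was thus 4.48, 12.1 and 4.32 times the genome share, about equal for the exclusive classes.

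**Figure D4:**
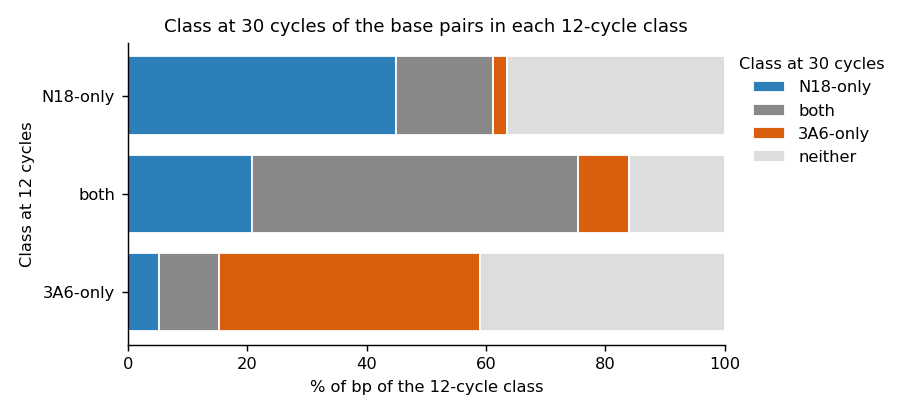
Each horizontal bar is 1 class of EDD bp at 12 cycles, divided in % of its bp by the class of the same bp at 30 cycles (blue N18-only, grey both, orange 3A6-only, light grey in neither). The segment of the same class takes 44.9%, 54.5% and 43.7% of the bars from top to bottom, and the segments of the opposite antibody take 2.32% and 5.28%.

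The recurring parts differed in the same direction. Base pairs that were N18-only at both sonications, 81.3 Mb, held 23.8 genes per Mb at a G+C content of 48.5% and lay 1.03% inside the 30-cycle lamin B1 domains. Base pairs that were 3A6-only at both, 62.7 Mb, held 3.39 genes per Mb at a G+C content of 38.9% and lay 95.3% inside them. At the level of genes, 1941 were N18-only at both sonications (8.74% of all genes), 751 were shared at both (3.38%) and 213 were 3A6-only at both (0.959%). Only 72 genes passed from N18-only to 3A6-only and 42 the other way. The longest stretches that changed from N18-only to 3A6-only were chr7:13134001-13849000 (0.715 Mb, 24 genes), a vomeronasal receptor cluster with Vmn2r56, Vmn2r55 and Vmn2r53, and chr8:96624001-97339000 (0.715 Mb, 16 genes), with the nuclear pore gene Nup93. In the opposite direction they were chr13:69784001-70752000 (0.968 Mb, 3 genes), with Ube2ql1 and Med10, and chr19:17490001-18161000 (0.671 Mb), with the proprotein convertase gene Pcsk5 alone. On the Nup93 stretch N18 islands exceeded 3A6 islands at both sonications, 63.5% against 26.0% and 56.9% against 9.65%, so islands kept the side that domains lost. On the Pcsk5 stretch islands changed side with the domains, from 26.4% of N18 and 35.0% of 3A6 at 12 cycles to 33.2% and 20.4% at 30 cycles.

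The classes were then read through 24 gene lists, each set beside the share of all genes. Large receptor families had 3A6-only shares above that of all genes, though most of their genes lay in no domain of either antibody. Such genes were 80.7% of the olfactory receptor genes at 12 cycles and 69.4% at 30 cycles. Among vomeronasal receptor genes they were 82.3% and 57.1%, against 73.9% and 66.1% of all genes. Of 1087 olfactory receptor genes, 124 (11.4%) were 3A6-only at 12 cycles, against 2.98% of all genes, and 245 (22.5%) at 30 cycles, against 5.34%, while 8 and 40 were N18-only. The 74 that were 3A6-only at both sonications include Olfr701, Olfr398, Olfr390 and Olfr710. Of 322 vomeronasal receptor genes, which detect pheromones, 36 were 3A6-only at 12 cycles and 116 at 30 cycles, with 9 and 0 N18-only, and Vmn2r13, Vmn2r16, Vmn2r17 and Vmn2r28 were 3A6-only at both. Lamin B1 domains held 573 of the olfactory receptor genes (52.7%) at 12 cycles and 858 (78.9%) at 30 cycles, against 7.78% and 16.8% of all genes. These families are clustered, so that the 245 olfactory receptor genes lay in 11 stretches and the 116 vomeronasal receptor genes in 12. Of 13 contactin and contactin-associated genes, which encode neuronal adhesion proteins, 5 were 3A6-only at each sonication, and Cntnap5a and Cntn3 at both.

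Ribosomal protein, keratin and potassium channel genes had N18-only shares above that of all genes. Of 80 ribosomal protein genes, 25 (31.2%) were N18-only at 12 cycles and 29 (36.2%) at 30 cycles, against 15.4% and 21.3% of all genes, and 0 and 1 were 3A6-only. The 16 that were N18-only at both sonications include Rpl13a, Rpl22, Rpl3 and Rps19, and the 25 of 12 cycles were spread over 21 stretches. Of 50 keratin genes, 21 were N18-only at 12 cycles, all in 1 stretch of chromosome 15 with Krt80, Krt7, Krt79 and Krt77, and 32 in 2 stretches at 30 cycles, with none in another class. Of 94 potassium channel genes, 23 (24.5%) were N18-only at 12 cycles and 36 (38.3%) at 30 cycles, against 1 and 3 that were 3A6-only, and Kcnq1, Kcnn3 and Kcnt1 were N18-only at both. Other lists lay near the shares of all genes at 12 cycles. The proteasome had 6 of 39 genes N18-only at 12 cycles (15.4%) and 9 at 30 cycles (23.1%), and respiratory complex I 5 of 36 (13.9%) and 11 (30.6%). Wnt and frizzled genes were N18-only for 5 of 29 (17.2%) and 9 (31.0%). None of these 3 lists had a 3A6-only gene, where lists of this size hold few genes of that class at the share of all genes. Of 361 numbered zinc finger genes, 66 (18.3%) and 67 (18.6%) were N18-only, and 6 (1.66%) and 26 (7.20%) were 3A6-only, so that at 30 cycles the N18-only share was below and the 3A6-only share above that of all genes.

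**Figure D5:**
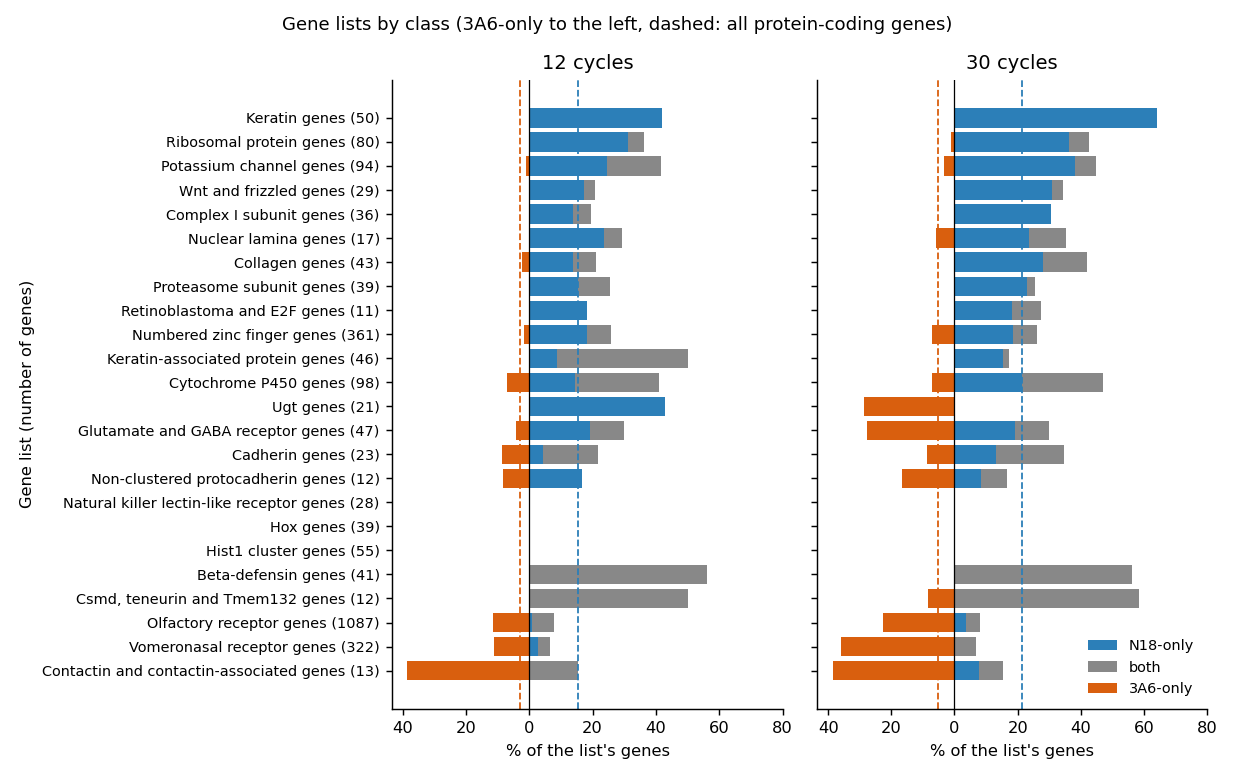
For each gene list (vertical, with its number of genes) bars to the right give the % of its genes that were N18-only (blue) and shared (grey) and bars to the left the % that were 3A6-only (orange), with dashed lines at the N18-only and 3A6-only shares of all protein-coding genes. Keratin and ribosomal protein genes extend past the blue line at both sonications, olfactory, vomeronasal and contactin genes past the orange line, and beta-defensin and Csmd, teneurin and Tmem132 genes are mostly grey.

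Some families were shared in part. Of 41 beta-defensin genes 23 lay in both at each sonication, in 2 stretches of chromosome 8, against 7.71% and 7.25% of all genes. Of 12 Csmd, teneurin and Tmem132 genes, which are long and mostly neuronal, 6 lay in both at 12 cycles and 7 at 30 cycles, and Csmd1, Tmem132d, Csmd2 and Tmem132c did at both sonications. Of 98 cytochrome P450 genes, which metabolize steroids and drugs, 26 (26.5%) and 25 (25.5%) lay in both, in 6 and 7 stretches. Cyp3a57, Cyp3a59, Cyp3a16 and Cyp3a25 did so at both sonications. That family was split, since 14 and 21 of its genes were N18-only, 7 were 3A6-only at each sonication, and 51 and 45 lay in neither. Keratin-associated protein genes differed between the sonications, with 19 of 46 in both at 12 cycles, in 1 stretch, and 1 at 30 cycles. At 30 cycles 82.6% of them lay in no domain of either antibody. A chromosome without 3A6 domains, as chromosome 16 was at 30 cycles, could hold no shared gene. No split of these genes by chromosome was made. Collagen genes were N18-only for 6 of 43 (14.0%) at 12 cycles and 12 (27.9%) at 30 cycles, against 15.4% and 21.3% of all genes, and 1 and 0 were 3A6-only. Retinoblastoma and E2F genes were N18-only for 2 of 11 (18.2%) at each sonication, near the same background. No Hox gene (39), Hist1 histone gene (55) or natural killer lectin-like receptor gene (28) belonged to 1 of the 3 classes at either sonication. Chromatin with no domain of either antibody held 73.9% of all genes at 12 cycles and 66.1% at 30 cycles. The number of separate loci behind these lists was not counted, so their absence from the classes was not weighed against that share.

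Among the genes of the nuclear lamina itself, 4 of 17 (23.5%) were N18-only at each sonication, against 15.4% and 21.3% of all genes, 1 and 2 were shared, and 0 and 1 were 3A6-only. Sun2, Lemd2 and Ankle1 were N18-only at both sonications, each covered in full by N18 and not at all by 3A6. Sun5, a gene of the testis, was covered in full by both antibodies. Sun1 was N18-only at 12 cycles and shared at 30 cycles. Lmnb2 was N18-only at 30 cycles, and Sun3 was 3A6-only there with 84.99% of its length. The genes of the proteins immunoprecipitated in the series, Lmna, Lmnb1 and Tmpo, lay in no KO domain of either antibody. This was the common case, since chromatin without such a domain held 73.9% of all genes at 12 cycles and 66.1% at 30 cycles. For Tmpo and Lmnb2, which lie on chromosome 10, the 12-cycle result was that of the whole chromosome, which had no domain of either antibody.

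The last comparison set KO beside WT. At 12 cycles WT domains of the antibodies were shared for 62.7% of their joint bp, with 94.7 Mb in N18 alone and 89.5 Mb in 3A6 alone, against 42.6% in KO. At 30 cycles they were shared for 14.4%, with 135 Mb in N18 alone and 479 Mb in 3A6 alone, against 26.9% in KO. The differences in lamin B1 share and in genes per Mb had the same direction in WT as in KO. Lamin B1 domains covered 2.38% of WT N18-only and 33.6% of WT 3A6-only bp at 12 cycles, and 41.9% and 96.0% at 30 cycles. Genes lay at 22.5 and 8.06 per Mb of these classes at 12 cycles, and at 7.09 and 3.63 per Mb at 30 cycles. Gene length kept its direction in WT at 30 cycles but not at 12 cycles. The WT median at 12 cycles was 11.3 kb in N18-only and 12.8 kb in 3A6-only chromatin. At 30 cycles it was 12.3 kb and 1.77 kb. With 1 library per group, the differences between WT and KO were not tested.

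The exclusive classes of KO at 12 cycles lay differently in the WT maps. For scale, WT N18 domains covered 15.3% of the genome at 12 cycles and 9.04% at 30 cycles, and WT 3A6 domains 15.1% and 22.1%. Of the N18-only bp in KO, 58.6% lay in WT N18 domains and 51.1% in WT 3A6 domains of the same sonication, as Krt80, Krt7 and Rps19 did, which WT domains of both antibodies covered in full. Of the 3A6-only bp in KO, 6.71% lay in WT N18 domains and 16.9% in WT 3A6 domains at 12 cycles, and 63.3% in WT 3A6 domains at 30 cycles. Cdh8, a neuronal cadherin gene, was of this kind. KO 3A6 domains covered it in full at both sonications, and WT 3A6 domains did so at 30 cycles alone. At 30 cycles 69.7% of the 3A6-only bp in KO lay in WT 3A6 domains of that sonication, whereas 15.2% of the N18-only bp lay in WT N18 domains of that sonication and 63.9% in those of 12 cycles. The N18-only chromatin of KO at 30 cycles therefore overlapped more with WT N18 domains of 12 cycles than with those of its own sonication.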

How the data were processed

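Region lists of chromatin immunoprecipitation libraries were compared. Per the labels and the study's methods, reads were clipped (cutadapt), mapped to mm9 (Bowtie2 2.1.0), filtered at a mapping quality of 20 and freed of duplicates (Picard), and the authors then down-sampled each ChIP library to the read number of its input. The deposited SICER 1.1 islands (windows of 1000 bp, gaps of 3000 bp, FDR 0.01) hold read counts per island, and the deposited EDD domains (bins of 11 kb, gap penalty 5, FDR 0.1) hold a score per domain that the authors' caller gave. Islands of the 4 KO libraries held 3989494 to 13601739 reads. Since islands were called per library these are not depths, and the counts limit what could be called.

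Starts and ends were multiples of 1000 bp, so overlaps were taken on masks of that step over 20 chromosomes of mm9, with the Python libraries numpy 2.4.6 and pandas 2.3.3. Overlap and gene counting were checked on planted regions with known overlap. A protein-coding gene (GENCODE vM1, the longest record of each symbol) belonged to a class covering at least 50% of it. No test was run, with 1 library per group. Stretches named were the 3 longest of each class at each sonication and at both, the 2 longest changing sides in each direction and the richest in genes. Genes named were up to 3 list members, else the 2 longest genes, and in lists up to 4 members, those in a class at both sonications first. Krt80, Krt7, Rps19 and Cdh8 in the WT comparison, and the individual chromosomes, were chosen after their values were seen. Classes, lists and alternatives were chosen with earlier results of these data known. An alternative was taken as having moved a value when it fell outside a 95% interval that treated domains, stretches or genes as the units counted (Wilson for shares, Poisson for genes per Mb), which is a yardstick and no replicate error. Inputs, histone marks and expression were not analysed here, and some genes are not reported here.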

Additional observations from a re-analysis of the deposited data

Results flagged for a closer look

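A change of side between the sonications was looked for in the difference between N18 and 3A6, and each such difference was not tested, with 1 library per group. N18 domains exceeded 3A6 domains by 37.8 Mb at 12 cycles, and at 30 cycles the difference was -27.7 Mb. Of the 21 Ugt genes, the number N18-only minus the number 3A6-only was 9 at 12 cycles and -6 at 30 cycles. The genes were different ones, since the 9 were the Ugt1a cluster of chromosome 1 and the 6 belonged to the Ugt2 cluster of chromosome 5, each in 1 stretch. For glutamate and GABA receptor genes the difference was 7 at 12 cycles and -4 at 30 cycles. There the N18-only number was 9 of 47 at both sonications, and the 3A6-only number went from 2 to 13, in 5 stretches. For cadherin genes it was -1 and 1, and for non-clustered protocadherin genes 1 and -1, each a matter of 1 or 2 genes.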

How the results depend on the processing

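Of 46 alternatives, 33 left the value within the interval described in the processing summary, 13 moved it and 0 turned its direction. Only the 12 alternatives for lamin B1 share and the 10 for genes per Mb, which are differences, could turn. Shared and recurring percentages cannot fall below 0. Shared EDD bp rose to 64.6% at 12 cycles and 42.7% at 30 cycles when whole domains were counted as shared from 50% coverage, and to 82.9% and 64.8% when a touch was enough. Shared SICER bp was 26.9% and 26.5% with islands above the median read count, and 29.3% at 12 cycles with islands up to 10 kb apart joined. The lamin B1 difference was 17.1 and 55.5 points with SICER islands and 83.0 and 46.8 points with lamin B1 of the other sonication. The difference in genes per Mb, 14.3 at 12 cycles and 13.7 at 30 cycles in EDD domains, was 9.81 and 5.40 with SICER islands and genes by transcription start. Domains above the median score or of at least 500 kb, sets of the same length, autosomes alone, genes by transcription start and stretches of at least 100 kb moved none of the EDD values they were applied to, and recurrence ranged from 44.97% to 47.7% for N18-only and from 38.9% to 44.1% for 3A6-only bp. The cause of these changes was not tested. No paired analysis was possible because each group holds 1 library and no difference came from a test; antibodies were compared within each sonication, which gives 2 pairs of libraries. Lamin B1 and LAP2alpha domains came from WT cells, so a change of the lamina in KO would not be seen in them.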

Other observations

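Neither antibody had a domain in 78.6% of the genome in KO at 12 cycles and in 70.98% at 30 cycles. That chromatin held 7.91 and 7.84 genes per Mb at a G+C content of 41.1% at both sonications, close to the 8.42 genes per Mb and 41.8% of the genome. It also held 62.2% of the WT lamin B1 domains at 12 cycles and 60.7% at 30 cycles, while 3A6 alone took 19.7% and 27.9% of them and N18 alone 0.192% and 2.52%. Of the WT LAP2alpha domains N18 alone took 24.7% at 12 cycles and 20.4% at 30 cycles, and 3A6 alone 3.60% and 10.5%.

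Islands that touched an island of the other antibody took a larger share of reads than of islands. At 12 cycles the 48.7% of N18 islands that touched a 3A6 island held 62.1% of the N18 reads in islands, and at 30 cycles 29.5% of islands held 47.1%. For 3A6 it was 56.2% of islands with 69.7% of reads and 51.3% of islands with 67.7%. Touching islands were longer, with medians of 26 to 33 kb against 19 to 20 kb for untouched islands, at similar reads per kb within a library.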
